A study of Mus musculus with 35 samples.

Results

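Wide H3K27ac domains of wild-type mouse neural progenitor cells were taken as the H3K27ac peaks of the wild-type line WT 541 that spanned 4000 bp or more and shared at least 1 base with an H3K27ac peak of a second wild-type line, WT 532. Of the 55130 H3K27ac peaks of WT 541, 2008 met this rule, and 37018 narrower peaks were also shared with WT 532. One further peak of 4474 bp at chr6:118072449-118076922 was wide enough but met no WT 532 peak and was left out. The narrowest members measured 4000, 4000 and 4003 bp, and the widest peaks just below the limit measured 3998 bp. The domains were thus chosen by their H3K27ac peak width in WT 541 and their overlap with WT 532, and both are given as a description only.

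The cells were neural progenitors of mouse embryos grown in culture. Their Mettl14 genotype was wild type (WT), deleted on 1 allele (Het) or deleted on both (KO). METTL14 is the partner of METTL3 in the enzyme complex that writes N6-methyladenosine (m6A) on RNA. The floxed allele carries loxP sites around exon 2 of Mettl14 and was made in G4 embryonic stem cells. The protocols name EIIa-Cre for a conventional knockout and Nestin-Cre for a brain knockout, and do not say which deletion these cultures carry. Chromatin immunoprecipitation for H3K27ac and H3K27me3 was done in 4 lines, WT 532, WT 541, KO 530 and KO 534, each set against its own input. RNA was sequenced in the same 4 lines (batch 3) and in 3 WT, 3 Het and 3 KO cultures of another batch (batch 1), and m6A peaks came from WT cells only. The series text calls the samples biological replicates and says no more of how the cultures are related, so p-values measure the spread between these samples.

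H3K27ac is the acetyl mark laid down by the acetyltransferases CBP and p300 at active promoters and enhancers. Runs of densely spaced acetylated nucleosomes mark genes that a cell type transcribes strongly, often those for its identity, and in neural progenitors these include transcription factors of the SOX, NFI and HES families. H3K27me3 is written on the same lysine by Polycomb repressive complex 2 and marks silenced developmental genes, so the 2 marks cannot sit on the same histone tail. In a culture of many cells both can still be found at 1 locus.

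The sequences of microRNAs encoded inside the domains are shown first, because the widest domain of all contains 1 of the mouse genes for miR-9, a microRNA of neural progenitors that targets genes such as Nr2e1. They come from RefSeq on GRCm38.p6 (mm10), run 5′ to 3′, and have the seed, bases 2 to 8, in capitals. Of 26 microRNA genes with a start in a domain, 24 had a mature sequence inside one, 40 mature sequences in all.
miR-9-5p (Mir9-1, chr3:88215613-88215635, plus strand): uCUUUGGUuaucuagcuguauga
miR-9-3p (Mir9-1, chr3:88215652-88215673, plus strand): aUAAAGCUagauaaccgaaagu
miR-9-5p (Mir9-3, chr7:79505279-79505301, plus strand): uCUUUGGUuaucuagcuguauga
miR-92b-3p (Mir92b, chr3:89227126-89227147, minus strand): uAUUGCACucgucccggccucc
miR-99b-5p (Mir99b, chr17:17830194-17830215, plus strand): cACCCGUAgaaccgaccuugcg
Mir9-1 and Mir9-3 encode an identical miR-9-5p on different chromosomes, and both lie in wide domains, of 37317 and 14242 bp.

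The promoters shown next are those of genes on which the results turn: Sox1, Nr2e1, Adrb1 and Camk2b for H3K27me3 found only in KO lines, Tnc and Itga4 for loss of acetylation and RNA, and Bahcc1 for the widest domain of a gene whose RNA rose. Each line gives the 150 bases upstream of the RefSeq start, from RefSeq on GRCm38.p6, read along the gene's strand, with every CG dinucleotide in capitals.
Sox1 (chr8:12395369-12395518, plus strand): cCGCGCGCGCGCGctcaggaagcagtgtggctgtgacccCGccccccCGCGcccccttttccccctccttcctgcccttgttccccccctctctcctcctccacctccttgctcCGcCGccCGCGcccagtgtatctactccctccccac
Nr2e1 (chr10:42583591-42583740, minus strand): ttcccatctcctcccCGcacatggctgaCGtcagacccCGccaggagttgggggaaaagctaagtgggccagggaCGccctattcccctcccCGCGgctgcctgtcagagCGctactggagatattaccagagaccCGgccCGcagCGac
Adrb1 (chr19:56721967-56722116, plus strand): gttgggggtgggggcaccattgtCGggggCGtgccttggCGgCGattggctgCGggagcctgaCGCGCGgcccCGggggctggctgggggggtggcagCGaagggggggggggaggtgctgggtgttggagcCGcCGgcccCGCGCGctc
Camk2b (chr11:6065749-6065898, minus strand): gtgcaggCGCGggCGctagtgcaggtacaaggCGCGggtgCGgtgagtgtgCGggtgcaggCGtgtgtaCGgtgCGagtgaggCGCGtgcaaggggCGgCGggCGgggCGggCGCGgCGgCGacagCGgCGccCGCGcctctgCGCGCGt
Tnc (chr4:64047016-64047165, minus strand): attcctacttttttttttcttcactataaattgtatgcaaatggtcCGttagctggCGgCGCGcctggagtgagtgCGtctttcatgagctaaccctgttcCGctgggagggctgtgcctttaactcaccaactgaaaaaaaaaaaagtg
Itga4 (chr2:79255276-79255425, plus strand): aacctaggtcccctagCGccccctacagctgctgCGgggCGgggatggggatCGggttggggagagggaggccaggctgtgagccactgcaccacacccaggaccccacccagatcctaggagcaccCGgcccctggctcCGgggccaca
Bahcc1 (chr11:120232797-120232946, plus strand): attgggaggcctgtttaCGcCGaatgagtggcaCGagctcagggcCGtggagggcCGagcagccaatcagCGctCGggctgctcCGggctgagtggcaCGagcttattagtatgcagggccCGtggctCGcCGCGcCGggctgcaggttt
Camk2b had the most CG dinucleotides of the 7, with 27, and Tnc and Itga4 the fewest, with 6 each, against a median of 8 in promoters inside a domain and 4 in all. Tnc was the one with a TATAAA. A match to GGGCGG (the GC box) on either strand was found in Sox1, Camk2b and Itga4, to CCAAT in Adrb1 and Bahcc1, and to TGACGTCA (the cyclic AMP response element) in Nr2e1. Such a match describes letters in this window and is no evidence of binding.

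The 2008 domains covered 12.3 Mb, with a median width of 5311.5 bp. Of these, 721 were at least 6000 bp wide and 142 at least 10000 bp. A transcript start of the assembled annotation lay inside 659 domains (32.8%), which together held starts of 738 genes. The other 1349 domains held none: 842 of them lay within a named transcript, 507 lay outside any, and their median distance to the nearest start was 26583 bp. The authors' own fold enrichment over input had a median of 5.21 in the domains and 3.71 in the narrower shared peaks of the same list.

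Acetylation of the domains was patchier in the KO lines than in the second WT line. Cover is used here for the percentage of bases that fall under any H3K27ac peak of a line. Over all domain bases, cover was 82.4% in WT 532, 60.1% in KO 530 and 69.6% in KO 534, so that both KO lines were below the WT line that did not set the domains' borders. Because the domains were chosen for their width in WT 541, any other line is expected to cover less than 100%, so the KO lines are set beside WT 532. The rule used WT 532 too, though only for 1 shared base, so that its cover cannot be 0. With 1 WT line beside 2 KO lines no test was run, and even 2 lines against 2 could not give a two-sided exact permutation p below 0.33.

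Acetylated stretches of the domains were shorter or more often split in the KO lines, and 6 of the 2008 domains had none in both. A peak of at least 4000 bp was present at 1274 domains (63.4%) in WT 532, at 565 (28.1%) in KO 530 and at 884 (44.0%) in KO 534. Only 25 domains in KO 530 and 13 in KO 534 had no peak at all. The domain was split over 2 or more peaks at 761 sites in WT 532, 1043 in KO 530 and 868 in KO 534. A wide peak remained in both KO lines at 483 domains, in 1 of them at 483 and in neither at 1042 (51.9%). Domains with a transcript start kept a wide peak in both KO lines at 241 of 659 sites (36.6%), and those without one at 242 of 1349 (17.9%).

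Narrower shared peaks were also less covered in the KO lines. They were kept only where WT 532 has a peak, so WT 532 cannot be at 0 there, while 16.9% of them had no peak in either KO line and 0.299% of the domains had none. Cover was below that of WT 532 in both KO lines at 1381 domains (68.8%), against 57.9% of all shared peaks, and above it in both at 187 (9.31%), against 11.7%. Measured over bases, cover fell short of WT 532 by 22.4 percentage points in KO 530 and 12.9 points in KO 534 in the domains, and by 23.0 and 15.1 points in the narrower shared peaks, where the choice of peaks sets part of the gap. The shortfall was nearly the same in domains of 4000 to 6000 bp (22.4 and 13.6 points) and in those of 10000 bp or more (22.3 and 12.1 points). The whole KO peak lists were also smaller: H3K27ac peaks covered 68.7 Mb in WT 541, 82.7 Mb in WT 532, 50.5 Mb in KO 530 and 64.8 Mb in KO 534. Whether the size of a line's list sets its cover of the domains was not tested.

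The gap to WT 532 was wider at the edges of the domains than in their middle. In the middle of the domains (the central 20% of the width), cover was 87.9% in WT 532, 68.5% in KO 530 and 77.1% in KO 534. Near the edges (the outer 20%) it was 69.2% in WT 532, 41.4% in KO 530 and 51.5% in KO 534. In domains with a transcript start the middle was covered to 90.9%, 75.4% and 82.8% in these lines, and in domains without one to 86.5%, 65.2% and 74.3%. Domains that lay away from starts were thus the less completely covered in all 3 lines, WT 532 included.

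**Figure D1:**
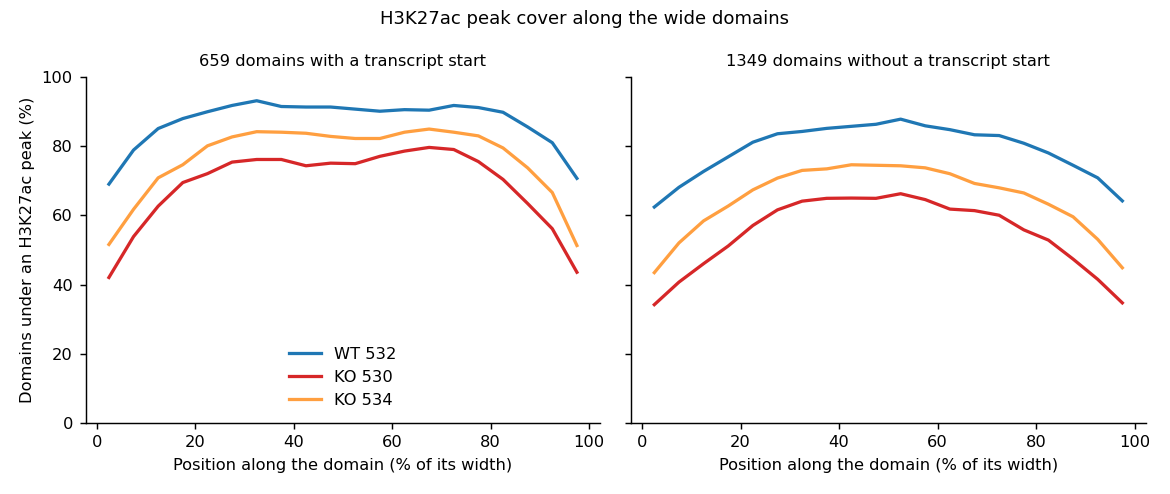
Percentage of domains under an H3K27ac peak (vertical axis) by position across the domain from edge to edge (horizontal axis, percent of the domain's width) in WT 532, KO 530 and KO 534, for domains with and without a transcript start. Each line is 1 cell line; all 3 dip at the edges, and both KO lines lie below WT 532 throughout.

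Starting from another line changed which regions were taken. Among 1886 regions chosen as wide in WT 532 and shared with WT 541, cover was 84.8% in WT 541, 62.1% in KO 530 and 71.0% in KO 534. The 671 regions chosen as wide in KO 530 were covered to 92.0% and 93.0% by the WT lines and to 90.7% by KO 534. The 1237 regions of KO 534 were covered to 85.0% and 84.9% by the WT lines and to 72.8% by KO 530. Of the wide regions, 86.1% of those of KO 530 and 73.1% of those of KO 534 overlapped a WT 541 domain. When the peaks of all 4 lines were joined and the 3640 regions of 4000 bp or more were taken, cover was 79.3% and 78.2% in the WT lines, 52.6% in KO 530 and 65.1% in KO 534. Both KO lines were below both WT lines there. These regions were built from the same peak lists that are compared, and the WT lists cover more bases than the KO lists. With so few lines an exact permutation test could not decide whether the genotypes differ, so these values are given as a description only.

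The widest domain surrounded Mir9-1, which encodes miR-9, at chr3:88197281-88234597. It spanned 37317 bp in WT 541, and a single peak of 37042 bp covered most of it in WT 532, where total cover was 98.0%. In KO 530 it was broken into 6 peaks, the widest 12896 bp, with 85.9% cover, and in KO 534 into 5 peaks, the widest 14320 bp, with 87.6% cover. Acetylation thus remained over most of the stretch in KO lines, with gaps in it. The second widest, 24579 bp at chr11:120222290-120246868, held the start of Bahcc1, which encodes a chromatin protein with a BAH domain, and kept 79.0% and 92.4% cover in KO 530 and KO 534 against 88.6% in WT 532.

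Among the 12 widest domains, cover in the KO lines ranged from near that of WT to well under it. The domain of Mtss1l, an actin regulator of the membrane, was covered to 92.7% in WT 532, 97.1% in KO 530 and 92.9% in KO 534, with no loss in either KO line. The domain of Gm10432 went from 88.6% in WT 532 to 45.3% and 60.4%, and that of Adcyap1r1, the receptor for the neuropeptide PACAP, from 85.3% to 57.0% and 69.8%. The domain of Gpr56, an adhesion receptor of progenitors, had 89.5% cover in WT 532, 65.0% in KO 530 and 87.4% in KO 534. Cspg4, the NG2 proteoglycan, had 98.6%, 78.6% and 91.6%. No H3K27me3 peak lay in any of the 12 in any line.

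**Figure D2:**
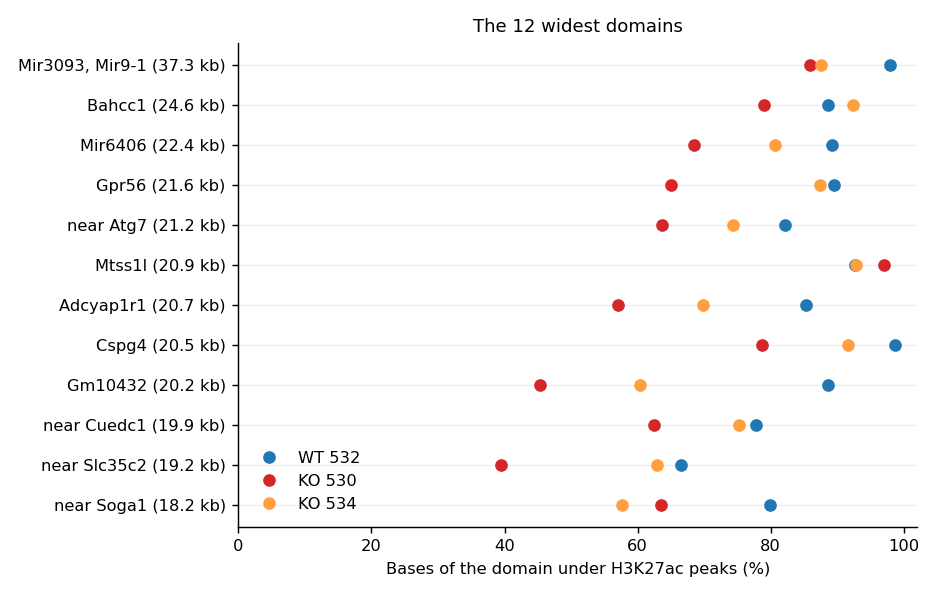
H3K27ac cover (horizontal axis, percent of the domain's bases) of the 12 widest domains in WT 532, KO 530 and KO 534, each dot 1 line, with domains named by the gene whose start they hold or, after "near", the gene with the nearest start. Mtss1l shows no loss, while Gm10432 falls from 88.6% to 45.3% and 60.4%.

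RNA from the genes of the widest domains did not follow one direction. Levels are given in CPM, the fragments assigned to the gene relative to the library total after TMM scaling, which compare 1 gene between libraries of a batch but not genes of different length. Bahcc1 had 111 and 123 CPM in the 2 WT libraries of batch 3 and 316 and 233 in the 2 KO libraries, and in batch 1 had 32.9, 35.0 and 35.6 in WT and 92.2, 75.2 and 76.7 in KO. KO and WT libraries did not overlap in either batch, and RNA rose by a log2 fold change of 1.22 ± 0.095 (SE) over both batches (edgeR adjusted p = 2.2e-06). Cspg4 was lower in KO, with 203 and 135 CPM in WT and 67.7 and 45.4 in KO in batch 3 (log2 fold change -1.24 ± 0.16 over batches, adjusted p = 5.7e-05). Adcyap1r1 rose by 0.63 (adjusted p = 0.01) and Gpr56 by 0.32 (adjusted p = 0.035) over batches. In batch 3 alone neither passed (0.23, adjusted p = 0.54, and -0.04, adjusted p = 0.86). The other pair named above, Mtss1l (0.13, adjusted p = 0.2) and Gm10432 (-0.78, adjusted p = 0.11), did not pass the test.

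The 3 loci of miR-9 precursors, chosen here after their values were seen, differed among themselves. These RNA libraries report the host transcript and not the short mature microRNA. The locus of Mir9-1 and Mir3093 had 1178 and 951 CPM in WT and 1034 and 832 in KO of batch 3, which overlap, and did not pass the test (log2 fold change -0.10 ± 0.10, adjusted p = 0.43). The locus of AI854517 and Mir9-3 had 67.8 and 53.9 CPM in WT and 34.0 and 27.3 in KO of batch 3, and fell by 0.79 on the log2 scale over batches (adjusted p = 5.3e-05). Its domain had 93.0% cover in WT 532, 55.8% in KO 530 and 64.7% in KO 534. The locus of C130071C03Rik and Mir9-2 starts in a domain that stayed nearly whole, with 97.7% and 98.0% cover in the KO lines, and its RNA rose by 0.61 over batches (adjusted p = 0.003), with a value in batch 3 of 0.25 that missed the threshold (adjusted p = 0.35). The domain of Mir92b, which shares its seed with miR-25 and miR-92a, spanned 7390 bp with 78.9%, 77.5% and 72.6% cover in WT 532, KO 530 and KO 534, and that of Mir99b spanned 4530 bp with 90.1%, 66.8% and 100%.

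At 6 domains there was no H3K27ac peak in either KO line. They lay near Six3, a homeobox gene of the forebrain, within Xylt1, within Nfia, near Zcchc6, within Plcb4 and near Mir30d. None held a transcript start, and the nearest start was 66842 bp away at Zcchc6 and 93052 bp away at Mir30d. The domain near Six3, at chr17:85621223-85626495 and 389 bp from its start, was the only 1 of the 6 to lie wholly under H3K27me3, in all 4 lines. Other domains without a start lost nearly all cover. At 78361 bp from the nearest start, that of Galnt15, cover went from 98.2% to 8.59% and 0%. Within Mtmr12, 22803 bp from its start, cover went from 97.2% to 7.21% and 3.93%. Within Npas3, a transcription factor of brain development, and 353627 bp from its start, cover went from 97.9% to 17.5% and 0%. Of domains with a start, the greatest losses were at Npas4, an activity-induced transcription factor of neurons, where cover went from 100% in WT 532 to 0% in KO 530 and 23.1% in KO 534, and at Thbd, the cell-surface receptor thrombomodulin, where it went from 97.3% to 29.0% and 9.35%. Gains were rarer. Cover was higher in both KO lines at Osbpl2, a lipid transfer protein, from 37.0% to 71.5% and 100%, at Tns3, a focal adhesion protein, from 31.0% to 70.6% and 79.4%, and at Gpd1, a glycerol phosphate dehydrogenase, from 42.0% to 67.1% and 87.8%.

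H3K27me3, which the rule did not use, was found at more of the domains in KO than in WT lines. A peak of this mark met 87 domains (4.33%) in WT 541, 106 (5.28%) in WT 532, 152 (7.57%) in KO 530 and 191 (9.51%) in KO 534. Both KO lines were above both WT lines. Bases under both marks at once were found at 94 domains in WT 532, 90 in KO 530 and 148 in KO 534; in WT 541, whose acetylated peaks are the domains, every domain with H3K27me3 has both by construction. In the narrower shared peaks the shares were 6.11% and 7.19% in the WT lines and 7.496% and 8.68% in the KO lines. H3K27me3 in both KO lines and no WT line was found at 34 domains (1.69%), against 0.871% of all shared peaks, and in both WT lines and no KO line at 5 (0.249%), against 0.315%. An overlap counts from 1 base, and domains are wider than most shared peaks, so these shares are not like for like. H3K27me3 peaks covered 42.2 Mb in WT 541, 58.8 Mb in WT 532, 48.9 Mb in KO 530 and 65.5 Mb in KO 534. The part of region width and list size in these shares was not tested. When only peaks with a −log10 q of at least 5 were kept, the lines of the genotypes overlapped: 27 domains in WT 541, 19 in WT 532, 28 in KO 530 and 26 in KO 534 had H3K27me3. At that limit 4 domains (0.199%) had it in the KO lines only, those of Fzd2, Adrb1, Zfp536 and Sox1, against 0.274% of all shared peaks, and 1 had it in the WT lines only. Of the 34 domains above, 3 remained, and the others have, in at least 1 KO line, no peak above that limit.

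At 40 domains H3K27me3 was found in all 4 lines, WT included. Those with a start included the transcription factors Pax6, Otx1, Nr2f2, Nkx2-2, Dmrta2, Egr2, Egr3, Klf4, Atf3 and Npas4, the ligand Wnt5a and the Notch target Hes5, and also Flnc, Snph, Arsi, Gfra2, Tppp3 and Nfatc2. These names are examples, chosen after their values were seen. The domain of Dmrta2 lay wholly under H3K27me3 in every line.

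The 34 domains with H3K27me3 only in KO lines included 19 with a transcript start, among them those of the progenitor genes Sox1 and Nr2e1. The genes named in this paragraph and the next were chosen after their values were seen. At Sox1, a SOX factor that keeps neural progenitors undifferentiated, the domain at chr8:12394110-12398690 lay under H3K27me3 to 100% in KO 530 and 99.6% in KO 534, and to 0% in both WT lines. Those peaks were among the stronger, with a −log10 q of 7.37 and 8.27 and an authors' fold of 4.85 and 5.60. H3K27ac stayed at the same site, with 89.6% cover in WT 532, 72.9% in KO 530 and 69.6% in KO 534, so both marks were called over most of the same bases. At Nr2e1, which encodes the orphan receptor TLX needed for neural stem cell renewal, H3K27me3 covered 66.8% in KO 530 and 84.5% in KO 534, while H3K27ac cover went from 89.7% to 36.3% and 35.8%. At Adrb1, the beta-1 adrenergic receptor, H3K27me3 covered 72.4% and 92.1% in the KO lines and H3K27ac went from 96.7% to 32.5% and 58.8%. At Fzd2, a Wnt receptor, H3K27me3 covered 47.4% and 45%.

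**Figure D3:**
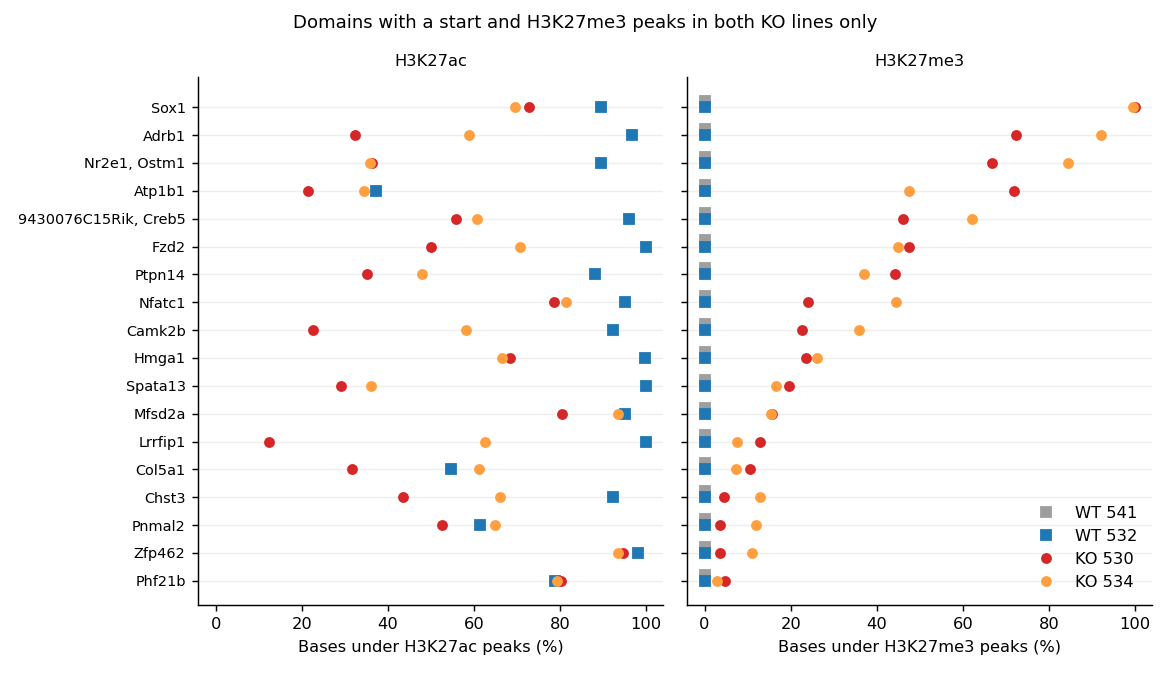
H3K27ac cover and H3K27me3 cover (horizontal axes, percent of the domain's bases) in each line for all but 1 of the domains that hold a transcript start and have H3K27me3 peaks in both KO lines and no WT line. Sox1 keeps 72.9% and 69.6% acetylated bases in the KO lines with H3K27me3 over 100% and 99.6%.

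Among genes of these domains, more fell than rose. Of 20 tested genes in the 34 domains, 2 were higher and 10 lower in KO over both batches, with a median log2 fold change of -0.614, against 182 higher and 200 lower of 546 genes in domains with H3K27me3 in no line (median -0.068) and 30.1% higher and 30.9% lower among all genes. In batch 3, from the lines used for the chromatin, none rose and 9 fell, against 17.3% higher and 14.4% lower among all genes. In batch 1, from other cultures, 6 rose and 10 fell, against 34.3% and 35% among all genes. Camk2b, a subunit of the calmodulin-dependent kinase II, had 425 and 361 CPM in WT and 126 and 136 in KO of batch 3, and 322, 367 and 373 in WT and 51.7, 19.8 and 37.5 in KO of batch 1, with no overlap (log2 fold change -2.61 ± 0.34, adjusted p = 6.2e-05). Nr2e1 had 47.3 and 39.5 CPM in WT and 12.5 and 9.31 in KO of batch 3, and fell by 1.41 on the log2 scale over batches (adjusted p = 0.00023). Ostm1, a chloride transporter subunit whose start lies in the same domain as that of Nr2e1, did not pass the test (log2 fold change -0.01 ± 0.073, adjusted p = 0.9).

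Sox1 RNA did not follow the chromatin in 1 direction. It had 37.7 and 41.9 CPM in WT and 31.4 and 30.2 in KO of batch 3 (log2 fold change -0.37, adjusted p = 0.097), but 23.0, 23.1 and 21.2 in WT and 29.2, 39.3 and 32.3 in KO of batch 1, where it rose by 0.59 (adjusted p = 0.00077). The libraries did not overlap in either batch, with opposite signs, and the difference between the batches passed the test (adjusted p of the genotype by batch term = 0.0087). Fzd2 (0.23, adjusted p = 0.35) did not pass over batches. Ptpn14, a tyrosine phosphatase, fell by 1.46, Chst3, a chondroitin sulfotransferase, by 2.27, and Atp1b1, a sodium pump subunit, by 1.32 on the log2 scale (adjusted p = 2.2e-07, 1.1e-05 and 5e-06).

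Across all domain genes, RNA changed in both directions. Of the 729 gene loci with a start in a domain, 654 passed the filter on low counts over both batches, and 75 did not. Of the 654, 206 were higher and 244 lower in KO (68.8% called), against a background of 61% called among all 13589 genes, 30.1% higher and 30.9% lower. Genes with a start in the narrower shared peaks were called in 62.7%. The median log2 fold change of the domain genes was -0.083, and that of all genes 0.003. At 2-fold or more, 54 were higher (8.26%, against 10.3% of all genes) and 103 lower (15.7%, against 9.12%).

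The 2 batches differed in how many genes were called. In batch 3, 113 of 648 domain genes were higher and 149 lower (40.4%, against a background of 31.7%, with 17.3% higher and 14.4% lower). Leaving out either WT library of batch 3 gave 63 or 49 higher and 100 or 99 lower. In batch 1, 238 of 651 were higher and 254 lower (75.6%, against 69.3%, with 34.3% higher and 35% lower). KO and WT libraries did not overlap in either batch, with the same direction in both, for 149 domain genes that were higher (22.8%, against a background of 23.8%) and 187 that were lower (28.6%, against 23.7%). In Het cultures, no domain gene was called against WT by edgeR, while 0.0146% of all genes were. The unadjusted edgeR p was under 0.05 for 86 of 651 domain genes and for 1175 of all 13677 genes. DESeq2 called 2 domain genes, and 26 among all genes.

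Genes whose domain lost the most acetylation had the lower RNA in KO. The change in cover is that of the mean of both KO lines minus WT 532, counted over 675 pairs of a domain and a tested gene. In the 47 pairs that lost 40 percentage points or more, the median log2 fold change was -0.72. The gene was called higher in 2 of these pairs and lower in 29, 20 of them by at least 2-fold. Among all genes, 30.1% were higher, 30.9% lower and 9.12% lower by at least 2-fold. The median was -0.20 in 149 pairs with a loss of 20 to 40 points, with 34 higher and 64 lower. It was -0.02 in 389 with a loss under 20 points or no change, with 139 higher and 137 lower. It was 0.13 in 81 with a gain of up to 20 points, with 34 higher and 22 lower. In the 9 pairs with a greater gain it was 0.25, with 5 higher and 0 lower. Pearson's r over the 675 pairs was 0.343 and Spearman's rho 0.255, and in batch 1, whose cultures were not used for chromatin, they were 0.299 and 0.227 over 671 pairs. The points share the same libraries and peak lists, and some share a domain, so the coefficients are a description only.

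**Figure D4:**
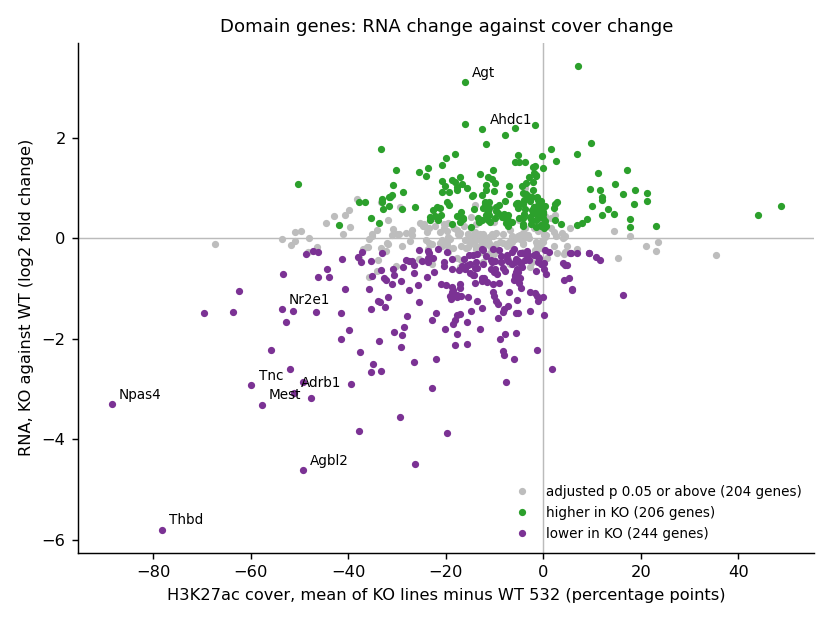
RNA log2 fold change, KO against WT over both batches (vertical axis), by change in H3K27ac cover of the gene's domain (horizontal axis, percentage points). The change in cover is the mean of the KO lines minus WT 532, and each point is 1 tested domain gene. Counted over pairs of a domain and a gene, 29 of the 47 that lost at least 40 points fell and 2 rose. Among all genes, 30.9% fell and 30.1% rose.

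Tnc encodes tenascin-C, a matrix glycoprotein of the germinal zone. It had 1660.9 and 1863.5 CPM in WT and 331 and 334 in KO of batch 3, and 2359.9, 2036.6 and 2127.5 in WT, 2427.4, 1927.5 and 1677.8 in Het and 235, 226 and 218 in KO of batch 1. Every KO library was far below every WT and Het library of its batch, and RNA fell by 2.93 ± 0.15 on the log2 scale (adjusted p = 3e-07). H3K27ac cover of its domain at chr4:64043438-64047975, which has the TATAAA promoter shown above, went from 97.6% in WT 532 to 30.8% and 44.7%, with no H3K27me3 in any line.

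Itga4, the alpha-4 integrin, had 113 and 275 CPM in WT and 26.3 and 21.9 in KO of batch 3, and 72.8, 67.9 and 70.8 in WT and 3.00, 1.71 and 4.09 in KO of batch 1. The 2 WT libraries of batch 3 were far apart, and both were above the KO libraries (log2 fold change -3.85 ± 0.35, adjusted p = 7e-06). Tagln2, an actin-binding protein, had 433 and 399 CPM in WT and 62.1 and 78.1 in KO of batch 3, and 304, 286 and 303 in WT and 13.0, 8.62 and 10.0 in KO of batch 1 (log2 fold change -3.88 ± 0.38, adjusted p = 1.1e-05). Mest, an imprinted gene for a hydrolase, had 669 and 782 CPM in WT and 93.1 and 169 in KO of batch 3 and fell by 3.32 on the log2 scale (adjusted p = 4.2e-06), while its cover went from 97.5% to 26.8% and 52.6%. None of these genes had KO libraries that reached the WT range.

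Thbd had 20.1 and 16.2 CPM in WT and 0.133 and 0.976 in KO of batch 3, and 13.5, 7.43 and 9.06 in WT and 0.0527, 0 and 0.0706 in KO of batch 1. It was the domain gene with the largest fall of those that met the naming rule (log2 fold change -5.80 ± 0.48, adjusted p = 3.3e-06), and in batch 1 its KO libraries were at or near 0. On the log2(FPKM + 1) scale, which understates changes of low genes, limma gave -2.17. Agbl2, a carboxypeptidase that trims tubulin tails, was low in all libraries, with 1.56 and 2.50 CPM in WT and 0.0664 and 0.0574 in KO of batch 3 (log2 fold change -4.62, adjusted p = 9e-06). Adrb1 had 11.5 and 11.2 CPM in WT and 2.32 and 2.93 in KO of batch 3 and fell by 3.08 on the log2 scale (adjusted p = 9e-06). Npas4 was barely detected, with 1.18 and 0.676 CPM in WT and 0 and 0.115 in KO of batch 3. The others of the 10 were 9330188P03Rik (-4.51), Angpt2, a vessel growth factor (-3.56), and Adamts14, a procollagen protease (-3.19).

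Among the 10 genes that rose furthest, the domains of Spsb2, Ahdc1, Acot1, 9430041J12Rik, 1110054M08Rik and C1qtnf5 were covered about as fully in KO 534 as in WT 532, and those of Acot1 and C1qtnf5 also in KO 530. Ahdc1, which encodes a protein with an AT-hook, had 50.8 and 55.7 CPM in WT and 238 and 199 in KO of batch 3, and 24.4, 26.4 and 27.03 in WT and 125, 133 and 119 in KO of batch 1. The KO libraries were all far above the WT libraries, and RNA rose by 2.17 ± 0.086 (adjusted p = 1.2e-07), with cover of 80.6% in WT 532, 55.7% in KO 530 and 80.4% in KO 534. Spsb2, a ubiquitin ligase adaptor, had 4.48 and 2.97 CPM in WT and 15.7 and 17.6 in KO of batch 3 (log2 fold change 2.27 ± 0.12, adjusted p = 3e-07). Agt, angiotensinogen, which astrocytes make in the brain, had 5.52, 6.18 and 1.94 CPM in WT and 33.8, 55.8 and 43.2 in KO of batch 1 (log2 fold change 3.10 ± 0.37 over batches, adjusted p = 3.5e-05). Acot1, an acyl-CoA thioesterase, rose by 1.89 and Gpr146, an orphan receptor, by 1.67. The others were 9430041J12Rik (2.20), 9330179D12Rik (2.05), which shares its domain with Ccnd2, 1110054M08Rik (1.88), 2610203C22Rik (1.78) and the joined locus of C1qtnf5 and Mfrp (1.67).

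**Figure D5:**
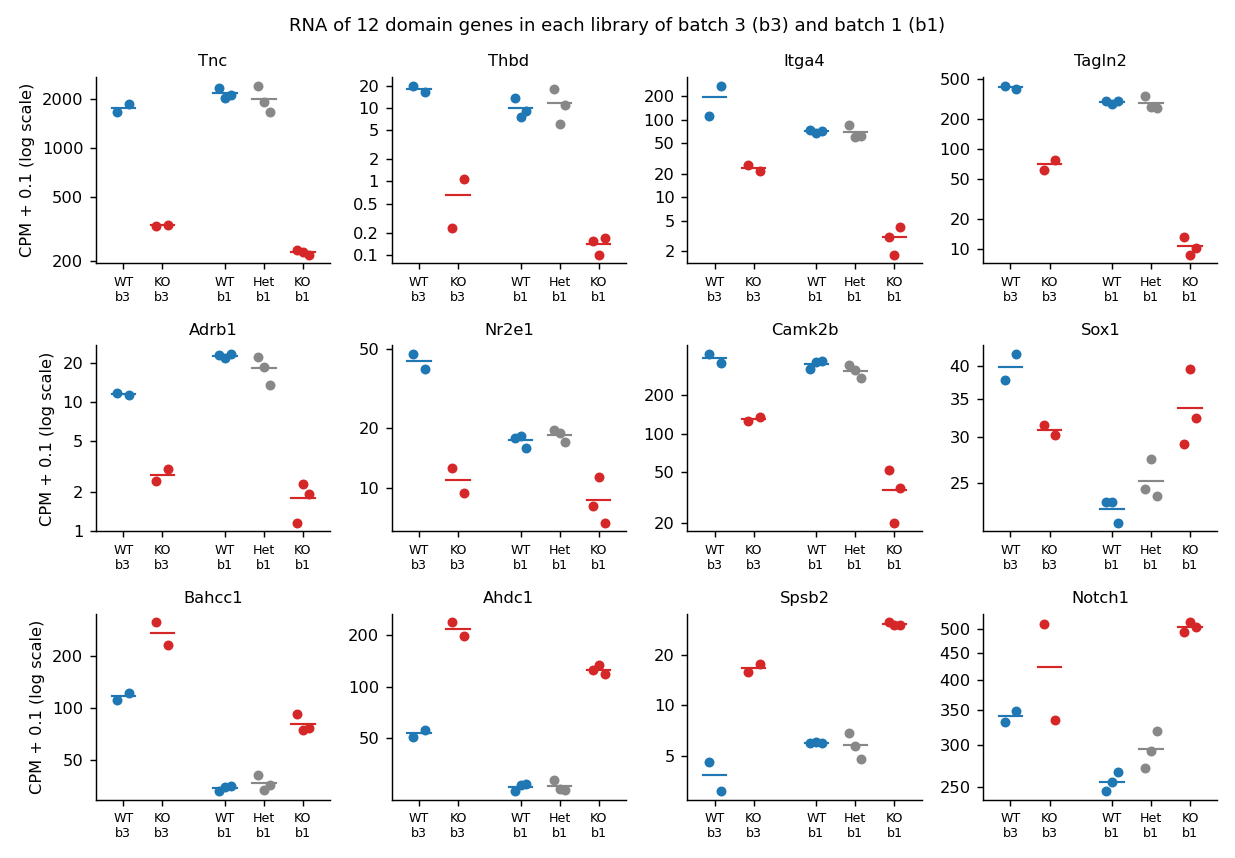
RNA level of 12 domain genes in each library (vertical axis, CPM + 0.1 on a log scale), with bars at the group means, for WT and KO libraries of batch 3 and WT, Het and KO libraries of batch 1, 1 point a library. Tnc lies between 1660.9 and 2427.4 CPM in WT and Het and between 218 and 334 in KO.

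Groups of genes known from progenitor biology were read from lists of pathway members. Each count of called genes is to be read against the 30.1% higher and 30.9% lower among all genes, and many of these shares lie near that background. Of 57 progenitor transcription factors, 27 had a start in a domain, of which 10 were higher and 8 lower in KO (median log2 fold change 0.208), against 27 higher and 14 lower on the whole list. Nfix, an NFI factor of late progenitors, rose by 1.25 (adjusted p = 9.3e-06), and Olig2, a factor of the oligodendrocyte lineage, fell by 0.59 (adjusted p = 0.0018), although in batch 3 alone Olig2 did not pass (-0.17, adjusted p = 0.46). Of 20 Notch and Id genes, 11 were higher and 3 lower, and 11 had a domain. Of the 11 with a domain, 5 were higher and 2 lower (median 0.433). Among them Notch1, the receptor, rose by 0.71, its target Hey1 by 0.85 and Id2, an inhibitor of basic helix-loop-helix factors, by 0.99 (adjusted p = 0.0017, 0.00017 and 1.9e-05), while Hes5 (0.66, adjusted p = 0.15) missed the threshold. Within batch 3, Notch1 had a value of 0.31 (adjusted p = 0.28) and Hes5 one of -0.52, against 1.40 for Hes5 in batch 1.

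Of 23 genes of the EGF, FGF and ERK pathway, 8 had a domain, none was higher and 6 were lower (median -0.808), against 4 higher and 11 lower on the whole list. The feedback inhibitors Spry4 and Dusp6 fell by 1.83 and 1.10 (adjusted p = 2e-05 and 0.0064), Dusp6 with a value of only -0.08 in batch 3 (adjusted p = 0.78). Of 25 cell cycle and Myc genes, 7 had a domain, with 1 higher and 4 lower (median -0.567). On the whole list, 6 were higher and 10 lower. The cyclins Ccnd1 and Ccnd2, which drive entry into S phase, fell by 2.86 and 1.90 (adjusted p = 1.8e-05 and 0.0012), and Btg2, an inhibitor of proliferation, rose by 0.65 (adjusted p = 0.013). In batch 3 alone the fall of Ccnd2 was 0.55 on the log2 scale (-0.55, adjusted p = 0.044) and Btg2 did not pass (0.19, adjusted p = 0.61). Of 25 radial glia genes, 7 had a domain, with 2 higher and 3 lower, against 8 higher and 9 lower on the whole list. Nes, the filament nestin, fell by 1.49 (adjusted p = 4.1e-05). Bcan, a matrix proteoglycan, rose by 0.60 (adjusted p = 0.0029), and in batch 3 alone had a value of 0.23 (adjusted p = 0.3).

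Of 24 immediate early genes, 17 had a domain, while 4.81% of all tested genes did. Of the 17, 3 were higher and 8 lower (median -0.397), against 5 higher and 10 lower on the whole list, Arc falling by 2.33 (adjusted p = 0.00019) and Egr3 by 1.49 (adjusted p = 0.0062). Of 41 histone modifiers, 7 had a domain, with 4 higher and 2 lower, against 16 higher and 13 lower on the whole list. Arid1a, a chromatin remodelling subunit, rose by 0.64, and the deacetylase Hdac5 fell by 0.88. Of 26 long noncoding RNAs, 3 had a domain, and Neat1 rose by 1.17 and Dleu2 by 0.49, but Neat1 only through batch 1, with 1.68 there and -0.07 in batch 3. Of 30 housekeeping genes, 3 had a domain, with none higher and 1 lower, against 2 higher and 21 lower on the whole list, and of 21 m6A machinery genes only Hnrnpc did. None of 26 neuronal genes had a domain.

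Of 14 astrocyte markers, 8 were higher and 5 lower in KO, and 3 had a domain: Gfap, the astrocyte filament, rose by 3.43 (adjusted p = 0.00062; too low to be tested in batch 3), Aldh1l1 fell by 2.13 and Sox9 (-0.08) did not pass. Summed over the whole astrocyte list, RNA was 2057 to 2464 CPM in WT and 3933 to 5557 in KO of batch 1, and 1356.5 to 1759.6 in WT and 1799 to 2096 in KO of batch 3. In these bulk samples, fewer cells of a type and less RNA per cell cannot be told apart, and the part of such shifts in the RNA of the domain genes was not tested.

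Domain genes were more abundant than other genes. Their median level in WT cells of batch 3 was 19.2 FPKM (which also corrects for transcript length), against 11.4 FPKM for genes with a start in the narrower peaks, and 12.3% against 5.68% reached 100 FPKM. Their transcripts were also more often methylated: 431 of 648 domain genes (66.5%) had an m6A peak in all 4 WT lists, against 46.0% of all tested genes and 48.0% of genes with narrower peaks. More abundant RNA is easier to call, and the part of abundance in this difference was not tested. The 4 lists come from 2 m6A immunoprecipitations, so they are not 4 independent samples. With m6A, 145 of 420 tested genes were higher and 143 lower in KO (median log2 fold change 0.017), and without it 61 of 234 were higher and 101 lower (median -0.221). Over all tested genes, 2245 of 5744 with m6A were higher and 1535 lower (median 0.108). Without it, 1843 of 7845 were higher and 2662 lower (median -0.085).

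The promoters of domain genes were less rich in CpG than those of the narrower peaks. RefSeq promoters of 300 bases, 250 before and 50 after the start, matched 526 of the 738 genes. The 952 promoters of domain genes had a median of 16 CpG, the 12542 of narrower peaks 22, and all 32851 promoters 7. A TATAAA on either strand occurred in 9.24% of domain promoters, 5.73% of those of narrower peaks and 13.6% of all, and GGGCGG in 53.3%, 66.4% and 35.7%. TGACGTCA occurred in 3.57% of domain promoters, 3.32% of those of narrower peaks and 1.79% of all.

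Library depth and the labels were checked in the RNA tables. The libraries held between 14.1 and 20.05 M fragments. Mettl14 itself had 37.8 and 35.4 CPM in WT and 30.3 and 22.7 in KO of batch 3, and between 20.04 and 24.9 in all libraries of batch 1; reads outside exon 2 count towards the gene, so these values check nothing about the deletion. The 12 progenitor markers summed to 7864 to 8544 CPM in WT and 4763 to 5583 in KO over both batches. They were thus expressed in all cultures, with a lower sum in KO. The sum weighs the most abundant markers most, so it does not show that each of the 12 fell. Microglial markers summed to at most 63.0 CPM and endothelial markers to at most 9.08 CPM. Fibroblast and pericyte markers, which include Cspg4, summed to 250 to 288 CPM in WT and 116 to 140 in KO of batch 3, and to 267 to 288 in WT and 198 to 207 in KO of batch 1. Oligodendrocyte lineage genes summed to 2187 to 2282 CPM in WT and 2681 to 2997 in KO of batch 3, and to 1735 to 2072 in WT and 1615 to 1736 in KO of batch 1.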

How the data were processed

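Peaks were called with MACS2 after Bowtie2 2.3.1 alignment to mm10, and RNA was processed with TopHat2 2.1.0, Cufflinks and Cuffdiff, per the submitters' processing notes. The deposited peak lists give each peak's fold enrichment as a ratio and its −log10 q, both the authors' values, per line and against that line's input. The deposited RNA tables give FPKM and estimated counts of fragments per locus, both from the authors' Cuffdiff run; the estimated counts were rounded to whole numbers. Loci with no gene name held 0.352 to 2.16% of fragments and were left out. A second table, for batch 2, was identical to that of batch 1 and was not used. The RNA libraries of the tables are not tied to lines and are named by group.

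Cover was computed per base from the peak lists. Gene loci with a transcript start of the merged assembly inside a domain were the domain genes; 23 of the 729 join several genes. KO was compared with WT by edgeR 4.0.16 (R 4.3.3), quasi-likelihood test with TMM scaling and its low-count filter, over both batches with batch as a term, within each batch, and with a genotype by batch term. P-values were adjusted by Benjamini-Hochberg over all genes, with a threshold of 0.05. DESeq2 1.42.0 and limma 3.58.1, the latter on log2(FPKM + 1), were alternatives. In simulated data for the comparison over batches, 82% of genes changed 2-fold and 54% changed 1.5-fold were recovered; for batch 3 these were 64% and 14%, and for batch 1 79% and 55%.

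Genes were named if they start in the 12 widest domains, if they were among the 10 with the largest change in each direction of those called over batches, apart in both batches and with the same direction in batch 3, or as up to 4 examples of a list. Genes of the H3K27me3 classes, microRNA loci, promoters printed and the genes of lost or gained acetylation outside this rule were chosen after their values were seen. The domains, lists and rules were chosen with earlier results of these data known, so no list is independent evidence. Values of some genes are counted in the lists and not reported here by name.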

Additional observations from a re-analysis of the deposited data

Results flagged for a closer look

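The 60 genes considered here were named by the rule on widest domains, largest changes and list examples. Genes named outside that rule, such as Sox1, were not counted. Of these 60, 19 had a KO effect that differed between the batches (edgeR genotype by batch term, adjusted p below 0.05). Among all 13589 genes 14.4% did, and among domain genes 24.9%; the named genes were largely picked for large changes. The values are log2 differences, batch 3 minus batch 1. For genes that were lower in KO in both batches, the fall was smaller in batch 3 by 1.90 for Adamts14, 1.59 for Adrb1, 1.40 for Angpt2, 1.74 for the locus of Ccnd1 and Mir3962, 2.16 for Ccnd2, 1.62 for Dusp6, 1.38 for Mest, 0.88 for Nes, 0.65 for Olig2, 0.93 for Spry4, 2.20 for Tagln2 and 0.82 for Tnc. Nr2e1 fell further in batch 3, with a difference of -1.05. Bcan (-0.68) and Notch1 (-0.71) rose less in batch 3. The signs of the batches were opposite for Gpr56 (-0.65), Hes5 (-1.97), Neat1 (-1.80) and Zfp36 (-1.61). The absolute change was larger in batch 1 for 17 of the 19. The batches differ in the cultures and in the merged assembly used for counting, with 32572 loci in batch 1 and 26458 in batch 3. These differences cannot be told apart, and the sample titles do not describe the sequencing.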

How the results depend on the processing

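The rule gave 3932 domains at 3000 bp and 721 at 6000 bp, and the genes called over batches went with it, to 408 or 89 higher and 479 or 98 lower. With only peaks of −log10 q of at least 5, the rule itself gave 1453 domains. Over these, mean KO cover was 53.5% and 27.5 percentage points under WT 532 (a difference of -27.5). H3K27me3 met 1.51% of them in KO and 1.14% in WT lines, while the counts at that limit in the Results are over the 2008 domains. The share of genes with m6A was 14.4% at that limit, and 85.8% with a peak in any list. In batch 3, limma called 74 genes higher. Leaving out each library of batch 3 gave 49 to 155 higher and 99 to 198 lower; the lone library of the arm is then assumed to vary like the other group. DESeq2 called 2 genes higher in Het. The other 159 values of these comparisons stayed within 1.5 times or their spread, and 280 of single genes kept their direction and call. On limma's log2(FPKM + 1) scale, which shrinks changes of low genes, the fold change moved by over 1.5 times for Agt (1.95), 9430041J12Rik (1.11), 9330179D12Rik (1.00), 2610203C22Rik (0.76), Gpr146 (1.05), Thbd (-2.17), Agbl2 (-0.51), Itga4 (-2.46), Npas4 (-0.24) and Adamts14 (-1.73). None reversed. No paired analysis was possible because the labels give the groups no shared replicate numbers. Peak lists hold no depth, 2 lines a genotype limit every chromatin comparison, and RNA libraries in the tables are not tied to lines.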
